A study of Arabidopsis thaliana with 4 samples.

Results

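WES1, GH3.3, IAA29 and HAT2 are 4 Arabidopsis thaliana genes of auxin conjugation and early auxin regulation, measured here in seedlings of an NFYA5 line and of wild type. They were taken as the probe sets that name 1 gene and carry one of these symbols in the platform annotation. Each gene had 1 such probe set, so that 4 of the 13350 genes named by such probe sets are described, from 22810 probe sets in all. The loci are AT4G27260 (WES1, also called GH3.5), AT2G23170 (GH3.3), AT4G32280 (IAA29) and AT5G47370 (HAT2). None of the 4 probe sets carries a suffix for probes shared between related sequences.

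The study used single-colour Affymetrix arrays on biotin-labelled total RNA from whole seedlings, with 2 arrays for Col-0 plants titled as overexpressing At1g54160 (NFYA5) and 2 arrays for wild type. NFYA5 encodes a subunit of the NF-Y complex, which binds the CCAAT box of promoters. All seedlings were 2 weeks old, were raised at 22 °C on MS agar with 3% sucrose in a cycle of 16 h light and 8 h dark, and were left untreated. The promoter that drives the transgene and the number of independent lines behind the 2 arrays were not given in the sources used here. The series' design text calls the second group an nfya5 mutant, whereas the sample titles name an overexpressor. The titles were followed. The annotation used lists 0 probe sets for At1g54160, so the label was not checked against the level of NFYA5, and every direction below is that of the arrays labelled overexpressor.

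Auxin, chiefly indole-3-acetic acid, is sensed by F-box receptors that trigger the destruction of Aux/IAA proteins and so release the auxin response factors that these proteins hold in check. Some enzymes of the GH3 family attach amino acids to auxin and lower the pool of free hormone. Many GH3 and Aux/IAA genes are themselves induced quickly by auxin, which closes a feedback loop. WES1 conjugates indole-3-acetic acid and can also act on salicylic acid, and it is induced by stress as well as by auxin. GH3.3 is an auxin-inducible enzyme of the same family. IAA29 is an Aux/IAA family member that responds to shade and warmth, and HAT2 is an auxin-induced homeodomain-leucine zipper factor of class II, a group also known from the shade response.

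Of the 4 genes, WES1 was lower in the overexpressor arrays and the other members did not pass the test. WES1 fell to a fold of 0.60 of the wild type level (95% interval 0.51 to 0.72, n = 2 arrays per group). GH3.3, IAA29 and HAT2 had folds of 1.06, 0.90 and 0.90, each with an interval that includes 1. Folds are on the scale of the signal with 50 added, which understates changes of dim probe sets. Over all tested probe sets, 0.759% passed as lower and 1.29% passed in either direction at an adjusted p of 0.05 (limma's moderated test with Benjamini-Hochberg adjustment over 13961 probe sets). With 4 genes chosen in the knowledge of earlier results, 1 of 4 passing is given as a description of these genes and not as a rate.

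WES1 gave 377.6 and 422.2 units of signal on overexpressor replicates 1 and 2, against 679.9 and 710.1 on wild type replicates 1 and 2. Both overexpressor arrays lay well below both wild type arrays, and the gap between the groups was wider than the gap within either. The mean was 399.9 ± 31.5 in the overexpressor arrays and 695 ± 21.4 in wild type (SD, n = 2 each). Without any added constant, each overexpressor signal divided by each wild type signal gave 4 ratios, between 0.532 and 0.621. The log2 difference was -0.73 ± 0.11 (SE), with a 95% interval from -0.98 to -0.48 and an adjusted p of 0.0188 by limma. By size, WES1 stood at place 14 among the falls of the tested probe sets that name 1 gene. By p it stood at place 21 of 7496 among those probe sets.

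The call for WES1 was lost under 2 of the settings tried. Its own residual SD over the arrays was 0.077 on the log2 scale, below the 0.121 that limma's variance prior gave for a probe set of its brightness, and the SD used in the test was 0.114. With a variance prior that is constant over all brightnesses the log2 difference was the same, with an SE of 0.113 and an adjusted p of 0.101. With no filter on low signals the difference was again the same, with an SE of 0.102 and an adjusted p of 0.181. The cause of either loss was not tested. In whole seedlings, fewer cells of a type that expresses WES1 and less WES1 RNA per cell cannot be told apart.

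**Figure D1:**
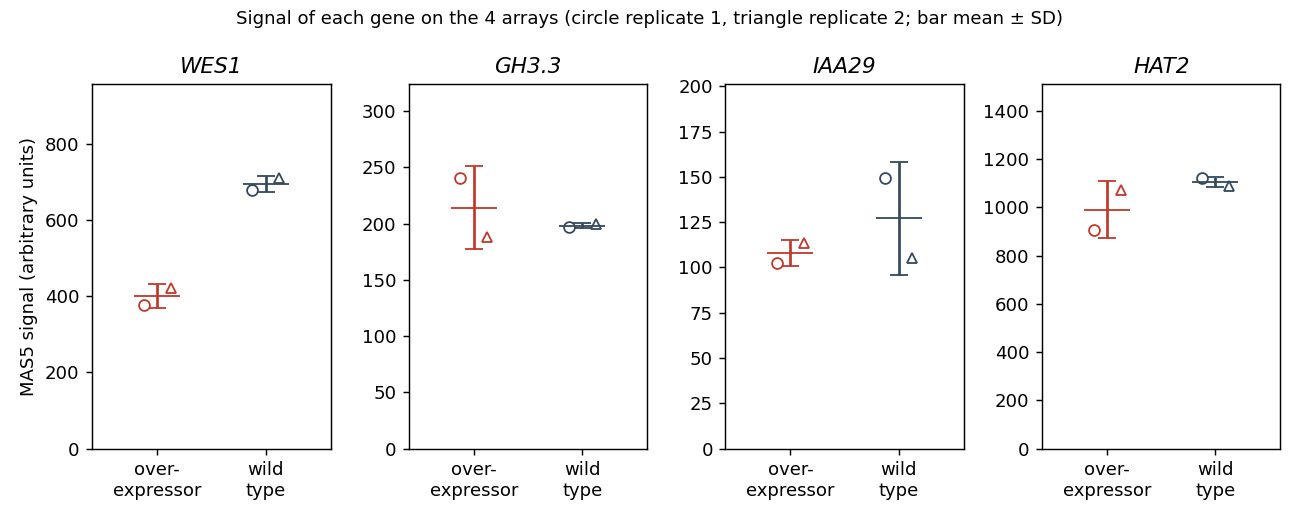
MAS5 signal in arbitrary units (y axes, each starting at 0 and scaled to its gene) of WES1, GH3.3, IAA29 and HAT2 in the overexpressor and wild type arrays; circles are replicate 1, triangles replicate 2, and bars the mean ± SD of 2 arrays. The 2 groups are apart for WES1 (377.6 and 422.2 against 679.9 and 710.1), close for HAT2, and overlap for GH3.3 and IAA29.

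The signal of GH3.3, the second auxin-conjugating enzyme, was 240.4 and 188.0 on the overexpressor arrays, against 196.7 and 199.6 in wild type. The overexpressor arrays lay on either side of the wild type arrays, which were almost equal. The log2 difference was 0.08 ± 0.15 (SE), with a 95% interval from -0.25 to 0.42 (limma, adjusted p = 0.836). The sign of this difference was set by overexpressor replicate 1, without which it was -0.06. A rise or fall of GH3.3 within these limits was not excluded with 2 arrays per group. They are not the smallest change that the test could call. The lower limit did not reach the fitted difference of WES1.

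IAA29, the Aux/IAA member, was the dimmest of the 4 probe sets, with a mean signal higher than 41.3% of all non-control probe sets. Its signals were 102.7 and 113.2 on the overexpressor arrays and 149.2 and 105.1 in wild type. Wild type replicate 1 stood above the other arrays, and the groups overlapped. The log2 difference was -0.16 ± 0.19 (SE), with a 95% interval from -0.56 to 0.25 (limma, adjusted p = 0.726). Without wild type replicate 1 it was 0.03, so that the negative sign rests on that array.

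HAT2, the homeodomain-leucine zipper factor, was the brightest of the 4 probe sets, above 85.4% of all non-control probe sets. Its signal was 905.9 and 1073.5 on the overexpressor arrays, against 1120.4 and 1089.0 in wild type. The groups did not overlap, but overexpressor replicate 2 lay nearer to the wild type arrays than to overexpressor replicate 1. The log2 difference was -0.16 ± 0.11 (SE), with a 95% interval from -0.40 to 0.08 (limma, adjusted p = 0.525), and it was -0.04 without overexpressor replicate 1. Groups that do not overlap were common, at 48.1% of all tested probe sets and 22.0% as lower, so the separation of HAT2 and WES1 is of a kind that many probe sets showed.

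The plot of all tested probe sets places the 4 genes among the rest. The middle 95% of the log2 differences lay between -0.43 and 0.46, with a median of 0.02. WES1 was outside that range, and GH3.3, IAA29 and HAT2 were inside it.

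**Figure D2:**
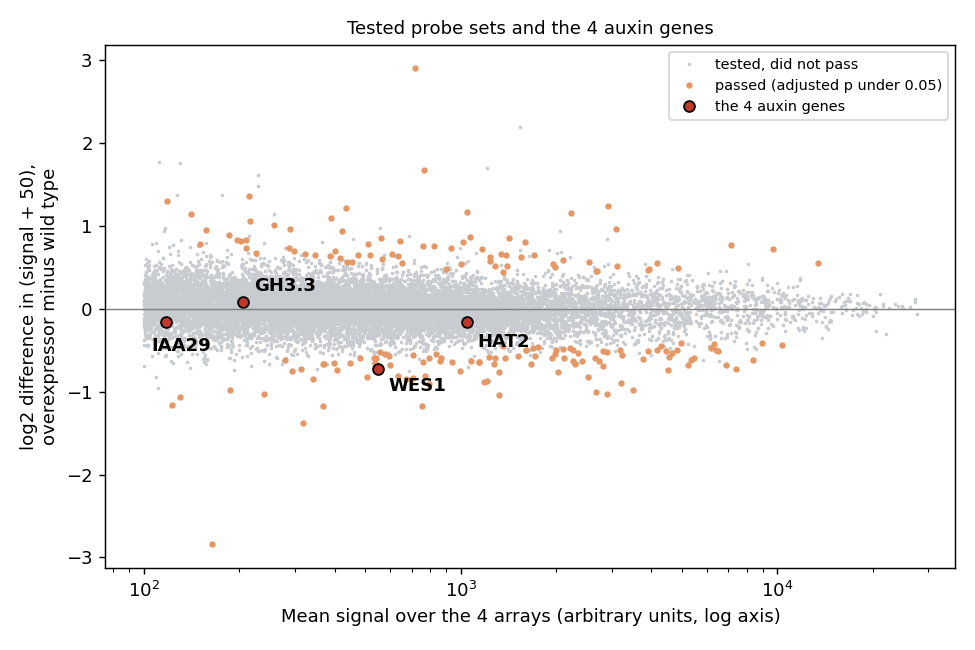
Log2 difference in signal + 50, overexpressor minus wild type (y axis), against the mean signal over the 4 arrays in arbitrary units (x axis, log scale) for 13961 tested probe sets; orange points passed at an adjusted p of 0.05, grey points did not, and red points are the 4 auxin genes. WES1 at -0.73 lies among the orange points below the main band, while GH3.3 at 0.08, IAA29 at -0.16 and HAT2 at -0.16 lie within it.

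To ask whether WES1 changed unequally to the other members, its log2 signal was set against theirs within each array. WES1 minus GH3.3 was 0.56 and 0.99 on the overexpressor arrays, against 1.56 and 1.61 in wild type, a difference of -0.81 between the groups. WES1 minus IAA29 was 1.49 and 1.53 on the overexpressor arrays, against 1.87 and 2.29 in wild type, a difference of -0.57. WES1 minus HAT2 was -1.16 and -1.25 on the overexpressor arrays, against -0.68 and -0.58 in wild type, also a difference of -0.57. In all 3 comparisons both overexpressor arrays lay below both wild type arrays. Taken singly, 22.0% of all tested probe sets were apart as lower. The 3 comparisons share the same WES1 values and so are not independent. An exact two-sided permutation test gave p = 0.333 in each, which is the smallest p that 2 against 2 arrays allow, so this design cannot show the inequality by that test. The level of one probe set on the array does not compare with that of another, and only the differences between groups are read here.

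The genes whose values over the 4 arrays were nearest to those of WES1 were AT1G13670, AT2G44380, AT1G22690, AT1G30870 and AT3G45730. Likeness was the Euclidean distance between log2(signal + 50) values, each taken relative to the gene's own mean over the 4 arrays, among 7495 other tested probe sets naming 1 gene. The distances of these 5 genes were 0.096 to 0.127. For AT1G13670, the nearest, the signal was 261.6 and 287.0 on the overexpressor arrays, against 473.7 and 457.7 in wild type. The other members were farther from WES1, with distances of 0.58 for HAT2, 0.65 for IAA29 and 0.87 for GH3.3.

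Profiles like those of the other members were more common. Within a distance 0.1 beyond that of the fifth-nearest gene there were 25 genes for WES1, against 379 for GH3.3, 162 for IAA29 and 367 for HAT2. That distance was 0.2265 for WES1, 0.1363 for GH3.3, 0.1377 for IAA29 and 0.1356 for HAT2. Because the measure keeps the size of differences between arrays, these counts also reflect how flat a profile is. The nearest were AT4G30680, AT1G21090, AT4G27652, AT5G61670 and AT1G48840 for GH3.3. For IAA29 they were AT4G01610, AT3G29075, AT4G00040, AT2G14900 and AT5G38895, which were likewise highest on wild type replicate 1. For HAT2 they were AT1G70570, AT1G75340, AT2G41830, DPL1 and AT4G19200, which were likewise lowest on overexpressor replicate 1. Each profile holds 4 values, so this likeness is a description only.

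Other auxin genes were taken from lists covering GH3 enzymes, Aux/IAA repressors, response factors, receptors, conjugate hydrolases and inactivating enzymes, synthesis, transport, class II homeodomain-leucine zipper factors, SAUR genes and other auxin targets. Of the 165 genes in these lists, 30 had a probe set naming them alone and 10 were tested, including the 4 members. Response factors, receptors, transport and SAUR genes had 0 listed probe sets and were not analysed here. The annotation used gave no gene name for 8730 of the 22810 probe sets and several names for 503. A gene without a listed probe set may therefore still be on the array. Of the 6 tested genes that are not members, limma called 0, and 0 reached an unadjusted p of 0.05, against 16.5% of all tested probe sets at that unadjusted p. All 6 had a positive log2 difference, between 0.06 and 0.33 with a median of 0.13. Over all tested probe sets the median was 0.02 and 46.8% were negative. The lists leave out IAGLU, a tested indole-3-acetate glucosyltransferase gene, with a log2 difference of -0.22 ± 0.18 (SE, limma adjusted p = 0.610). The shared sign therefore holds for the 6 listed genes only. The sign stayed positive for all 6 under both other scalings, but the median was 0.08 with arrays centred on their medians. Single arrays moved the median too, to 0.06 without wild type replicate 1, 0.27 without wild type replicate 2 and 0.21 without overexpressor replicate 1. GH3.17 was at -0.12 without overexpressor replicate 2 and IAA18 at -0.18 without wild type replicate 1.

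Among the listed inactivating enzymes is DAO2, a paralog of DAO1, a dioxygenase gene of the auxin oxidation pathway. DAO2 showed a signal of 184.4 and 208.2 on the overexpressor arrays, against 146.2 and 150.0 in wild type. Both overexpressor arrays were above both wild type arrays, with a log2 difference of 0.31 ± 0.15 (SE; limma, adjusted p = 0.334). DAO1 had a log2 difference of 0.14 and UGT74D1, which glucosylates indole-3-acetic acid, one of 0.11. The groups did not overlap for these genes either, and 26.1% of all tested probe sets were apart in this direction. YUC2, a flavin monooxygenase gene of auxin synthesis, showed a signal of 145.6 and 150.2 on the overexpressor arrays, against 85.5 and 132.4 in wild type, with a log2 difference of 0.33 ± 0.19 (SE; adjusted p = 0.412). Wild type replicate 1 was low for YUC2.

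Within the families of the members, GH3.17, which joins auxin to glutamate, showed a signal of 153.9 and 218.2 on the overexpressor arrays, against 163.1 and 181.2 in wild type. Its log2 difference was 0.08 ± 0.17 (SE; limma, adjusted p = 0.872), with a 95% interval from -0.30 to 0.45. WES1, a member chosen with earlier results known, was the 1 of 3 tested GH3 genes to pass, beside 1.29% of all tested probe sets. GH3.3 and GH3.17 were both slightly positive, and each turned negative when 1 of the overexpressor arrays was left out. IAA18, another Aux/IAA repressor gene, had a mean of 992 ± 13.3 in the overexpressor arrays and 962 ± 233 in wild type (SD, n = 2 each), and a log2 difference of 0.06 ± 0.14 (SE; adjusted p = 0.873). FHL, which helps carry phytochrome A into the nucleus, was the 1 tested gene of 14 shade and light regulators. Its signal was 110.3 and 98.6 on the overexpressor arrays, against 133.1 and 145.7 in wild type, and it did not pass (log2 difference -0.29 ± 0.17, SE; adjusted p = 0.417).

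**Figure D3:**
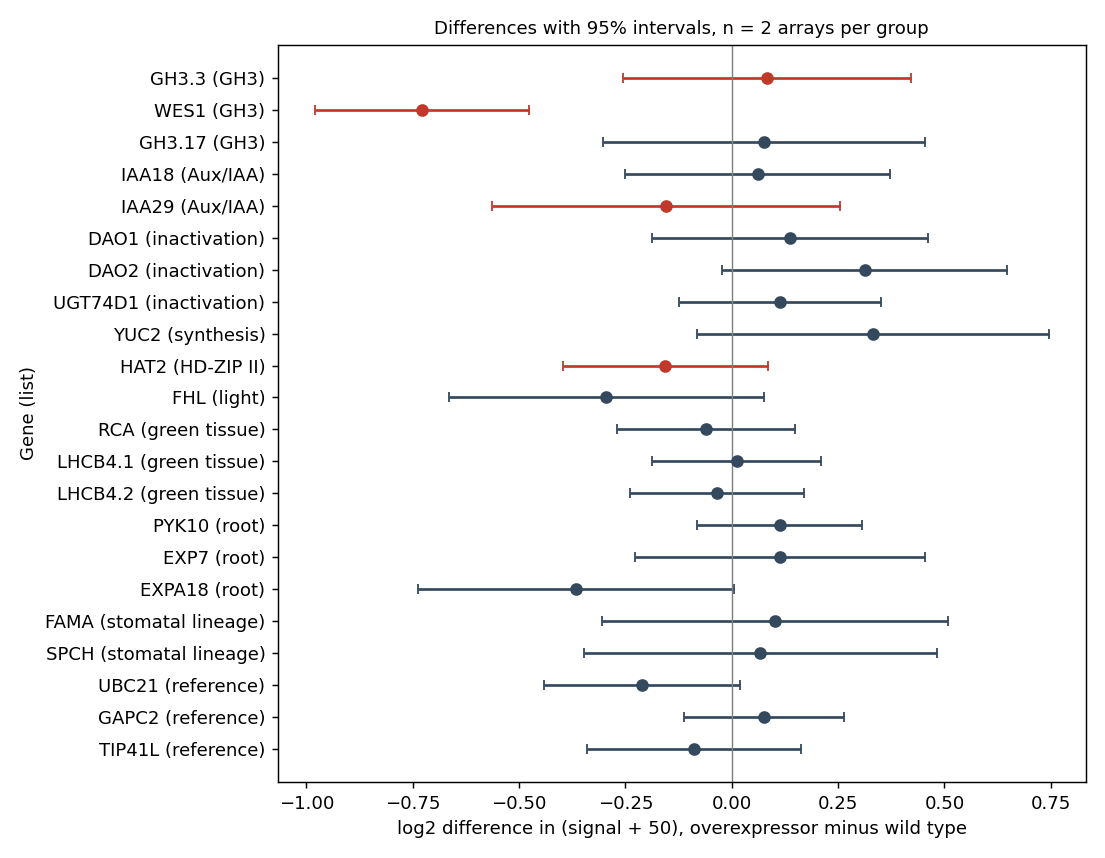
Log2 difference in signal + 50, overexpressor minus wild type (x axis), for the tested genes of the auxin and light lists and of the tissue marker and reference lists (rows, list in brackets); points are fitted differences, bars 95% intervals from limma, and red marks the 4 members. The interval of WES1 (-0.98 to -0.48) is the one that excludes 0 among the genes drawn.

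A further 20 listed auxin genes had mean signals below 100 and were left out of the test, with single values between 1.3 and 93.2. They comprised 9 GH3 genes, 5 Aux/IAA genes, 3 YUC genes, LBD16 and LBD29, which act in lateral root formation, and the glucosyltransferase gene UGT84B1. Of these, 6 had both overexpressor arrays above both wild type arrays and 3 had both below, beside 21.7% and 13.1% of all probe sets under the filter. In a limma fit without the filter 0 of the 20 were called, but that fit called only 0.00440% of all its probe sets, so the count says nothing about these genes. At an unadjusted p of 0.05 there were 5, where 7.52% of all probe sets under the filter reached it. These were YUC6, IAA20, GH3.9 and YUC4, which had positive differences, and IAA31, which had a negative one, all named here after their values were seen.

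Of these dim genes, YUC6 of auxin synthesis showed 24.0 and 52.8 on the overexpressor arrays, against 5.8 and 5.7 in wild type (limma without the filter, adjusted p = 0.296). YUC4, of the same enzyme family, had 16.4 and 49.6 on the overexpressor arrays, against 3.2 and 7.4 in wild type (adjusted p = 0.390). GH3.9, a family relative of WES1, had 57.6 and 55.7 on the overexpressor arrays, against 30.3 and 27.3 in wild type (adjusted p = 0.368). These 3 genes, like IAA20 and IAA31 below, were picked by their unadjusted p, which favours groups that do not overlap. In these 3 genes both overexpressor arrays lay above both wild type arrays, the opposite order to WES1, and none of them passed. IAA20 showed that order too, with 25.2 and 40.5 on the overexpressor arrays, against 10.9 and 7.4 in wild type (adjusted p = 0.331). IAA31 had the same order as WES1, with 1.6 and 2.8 on the overexpressor arrays, against 11.5 and 52.3 in wild type (adjusted p = 0.405). YUC11, the remaining dim YUC gene, overlapped between the groups, with 3.5 and 22.4 on the overexpressor arrays, against 13.2 and 41.7 in wild type. At such signals no fold is given, because no detection calls were used here and background noise was not separated from transcript.

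Green tissue genes and the root gene PYK10 had high signals on every array. Green tissue genes (RCA, LHCB4.1 and LHCB4.2) summed to 50668 and 55182 on the overexpressor arrays, against 52233 and 55432 in wild type, and root genes (PYK10, EXP7 and EXPA18) to 12795 and 13450, against 11818 and 12572. Of 8 tested tissue markers, 3 for green tissue, 3 for root and 2 for the stomatal lineage, limma called 0, and 0 reached an unadjusted p of 0.05, beside 1.29% and 16.5% of all tested probe sets. Most of the root sum is PYK10, which had 12419 and 13078 on the overexpressor arrays, against 11463 and 12107 in wild type. The root genes differed in sign, with log2 differences of 0.11 for PYK10, 0.11 for EXP7 and -0.37 ± 0.17 for EXPA18 (SE; adjusted p = 0.308). The part of root tissue in the result for WES1 was not tested. The 3 tested reference genes lay between -0.21 for UBC21 and 0.08 for GAPC2. Vascular markers had 0 listed probe sets.

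Across the arrays the median signal was between 181.4 and 194.1, and log2 signals correlated at 0.988 and 0.989 within groups and at 0.979 to 0.985 between them. Any pair of arrays shared identical values at 0.237% to 0.289% of probe sets, so none was a copy of another. No label says that the replicates were separate cultures, so the p-values cover only the spread among these arrays, and this may be technical spread.

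The plot of settings shows each member under the alternatives tried. WES1 had a negative log2 difference throughout, from -0.80 to -0.66. With groups that do not overlap, no sign change was possible from omitting an array.

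**Figure D4:**
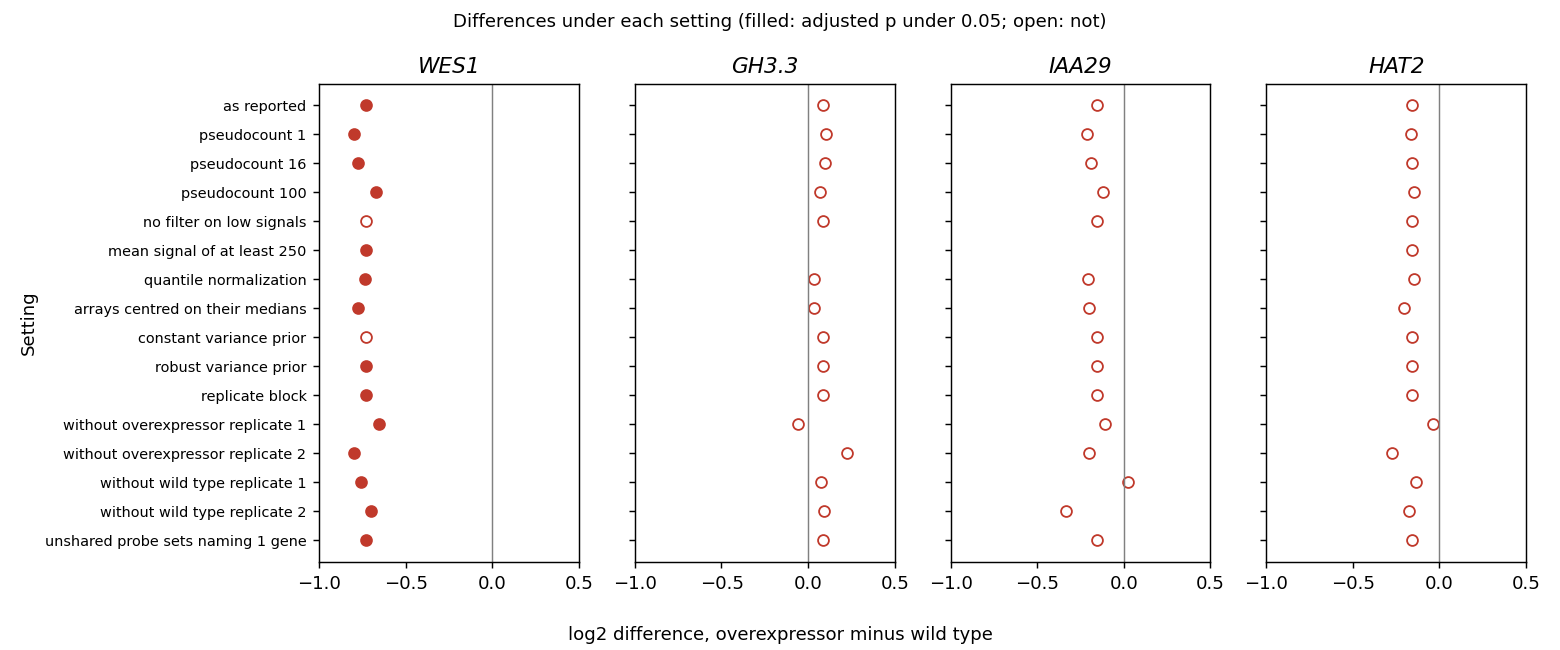
Log2 difference, overexpressor minus wild type (x axes), of WES1, GH3.3, IAA29 and HAT2 under each setting (rows); filled points have an adjusted p under 0.05 and open points do not. WES1 stays between -0.80 and -0.66 and is open with no filter and with a constant variance prior, while GH3.3 and IAA29 change sign when 1 array is left out; GH3.3 and IAA29 have no point at a minimum signal of 250.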

How the data were processed

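The authors deposited linear array intensities: MAS5 signals, per the submitters' processing notes, scaled on each array to a target of 500, per the labels. The 2% trimmed mean was 500.0 to 500.1 on all arrays. The MAS5 version and the build behind the probes were not given in the sources used here. No coordinates or sequences are printed. Global scaling hides a change shared by most transcripts.

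Genes were named through the platform annotation and the TAIR10.1 gene table, which matched 13436 of 13513 probe sets naming 1 gene. With 50 added, log2 signals of the 13961 non-control probe sets whose signals averaged at least 100 were fitted with limma 3.58.1 in R 4.3.3 (group term, intensity trend, two-sided, threshold 0.05). The script was tested on simulated data. The text names the 4 members, list genes that passed and up to 4 more tested genes of each list. Beyond these, it names untested list genes below the filter, some of them after their values were seen. It also names the 5 nearest profiles of each member, and IAGLU, which is outside the lists and was added after its value was seen. Members and lists were chosen with earlier results of these data known. Alternatives were pseudocounts, filters, normalizations, variance priors, a replicate block, left-out arrays and unshared probe sets.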

Additional observations from a re-analysis of the deposited data

How the results depend on the processing

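WES1 kept its direction in all 15 alternatives, with log2 differences from -0.80 to -0.66, and passed in 13 of them. It did not pass with no filter on low signals (-0.73, adjusted p = 0.181) or with a constant variance prior (-0.73, adjusted p = 0.101), where 0 auxin list genes were called instead of 1. Leaving out 1 array gave -0.80 to -0.66 for WES1, -0.0602 to 0.23 for GH3.3, -0.34 to 0.0255 for IAA29 and -0.27 to -0.04 for HAT2. GH3.3 turned to -0.0602 without overexpressor replicate 1 and IAA29 to 0.0255 without wild type replicate 1, and neither passed under any alternative that could be run, nor did HAT2. At a minimum signal of 250, GH3.3 and IAA29 were not tested. WES1 against the mean of the other members within an array had -0.65, and -0.75 to -0.56 over its 9 alternatives. The number of called probe sets, 180, was 1 with no filter, 9 with a constant prior, 56 over unshared probe sets naming 1 gene (fewer were tested) and 383 with arrays centred on their medians. That centring shifted the groups by 0.047 on the log2 scale and gave 115 higher and 268 lower calls, against 74 and 106. There were 101 calls without wild type replicate 1, 333 without wild type replicate 2 and 489 without overexpressor replicate 2, so single-array counts ran from 101 to 489. With the replicate block there were 1075 calls. Replicate 1 minus replicate 2 differences in the overexpressor correlated at 0.056 with those in wild type over the tested probe sets. Whether same-numbered arrays were paired was not tested. The cause of these changes in the number of calls was not tested. Having 2 arrays in a group limits the precision of every value.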
